A study of Mus musculus with 29 samples.

Results

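The comparison described here set the colon of C57BL/6 mice after 3 cycles of dextran sodium sulphate (DSS) against the colon after 1 cycle. The study added both groups to its 2-cycles group to see what a cycle more or less would change. In a cycle, DSS was given in the drinking water for 7 days and then replaced by normal water for 2 weeks, and the 3-cycles mice went through this 3 times. Members were chosen from the labels: 5 arrays labelled 3 cycles (replicates F1, F3, F5, G2 and G3) and 5 labelled 1 cycle (J1, J5, K1, K2 and K3), 10 of the 29 arrays analysed in 6 groups. Of the other groups, 2-cycles mice went through the cycle 2 times, 5 further mice had 2 cycles and 3 more weeks on normal water (2 cycles with additional recovery), 4 mice with acute colitis were taken right after 7 days of DSS, and 5 control mice drank normal water throughout. All mice were females, 6 weeks old according to the labels. The paper gives this as their age at the start of the study, so they were older at sacrifice, where they were age-matched. Its methods also state that the DSS percentage was higher in the later cycles than in the first. Each array held RNA of 1 mouse, from a snap frozen part of the most infiltrated colon, so that the piece was chosen by its look and holds epithelium, muscle wall and infiltrate together.

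DSS damages the lining of the colon and lets luminal content reach the tissue below. When it is withdrawn the epithelium regrows from the crypts, macrophages clear debris, and fibroblasts and smooth muscle cells remodel the wall. Repeating the exposure is used as a model of relapsing colitis, with lymphoid infiltrates and thickening of the wall as its known features. A piece of tissue reports the sum over these cells, and fewer cells of a type cannot be told apart from less RNA per cell.

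Expression was read on Mouse Gene 1.0 ST arrays as log2 values, on which a difference of 1 is a 2-fold change. Of 35511 probe sets (groups of short probes that usually read 1 transcript), 21789 carry 1 gene symbol. They stand for 19938 genes, and every gene below is given by the brightest of its probe sets unless stated otherwise. The median value of the arrays lay between 6.02 and 6.14, and the correlation across probe sets was 0.979 to 0.988 among the 3-cycles arrays, 0.982 to 0.991 among the 1-cycle arrays and 0.975 to 0.988 between the groups. The colon markers were present in all 10 arrays. Muc2, the main mucin of goblet cells, averaged 13.31 after 3 cycles and 13.34 after 1 cycle, and the epithelial villin gene Vil1 averaged 10.45 after 3 cycles and 10.47 after 1 cycle. The other measured epithelial markers (Krt20, Cdx1, Slc26a3, Car1 and Cdx2) averaged lower after 3 cycles, by -0.16 (Krt20) to -0.31 (Cdx2). None of these differences passed the adjusted p used below (limma, smallest 0.269 for Cdx1).

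A split of the arrays, whose origin the labels do not give, runs along the same line as the comparison. A probe set with no gene listed splits the 29 arrays into a low set of 14 (at most 8.14) and a high set of 15 (at least 11.09). It read 11.31 to 11.88 in the 3-cycles arrays, all of the high set, and 7.10 to 7.78 in the 1-cycle arrays, all of the low set. In the direct comparison the number of cycles and the array set therefore cannot be told apart. All 5 arrays of 2 cycles with additional recovery are of the high set and all 5 control arrays of the low set. The 2-cycles group holds 2 low and 3 high arrays (also its 2 label letters, D and E) and acute colitis holds 2 of each, which allows a fit with the array set as a covariate. Its value is given below as the value with array set, and rests on those 9 mice. Replicate G3 also stood apart from the other 3-cycles mice, with squamous keratins, neutrophil genes and interferon gamma response genes far above them. Several gene and list results are therefore given with and without it.

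The profiles of both groups were close. Among the 19938 genes, 92.3% differed by less than 1.2-fold and 15 by more than 2-fold. With limma (1 fit of all 29 arrays, Benjamini-Hochberg adjustment over all probe sets), 397 of the 35511 probe sets (1.12%) were higher after 3 cycles and 230 (0.648%) were lower at an adjusted p under 0.05. This split of 397 to 230 became 236 to 232 when each array was centred on its median and 307 to 312 after a further quantile normalization. With a fold above 2 as well, 26 probe sets (0.0732%) were higher and 17 (0.0479%) lower, of which 21 and 17 have no gene symbol. By gene, 138 of 19938 (0.692%) passed the adjusted p in the higher direction, with a median fold of 1.27, and 75 (0.376%) in the lower direction, with a median fold of 1.30. The values of both groups did not overlap for 110 of the 138 and 55 of the 75 genes, against 823 of all genes (4.13%). Only AY036118, Usp17ld and Gpnmb passed the adjusted p and the 2-fold threshold, all higher after 3 cycles.

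With array set, no gene passed the adjusted p (limma, smallest adjusted p = 0.212), while 720 of 19938 genes were higher and 668 lower at an unadjusted p under 0.05. A share of 0.05, both directions together, would be expected there if no gene differed. Over the 138 and 75 genes above, the median log2 fold changes were 0.23 and -0.24 in this fit, against 0.34 and -0.38 without it. Both fits use the same arrays, on which these genes had been picked. Leaving out G3 gave 28 genes higher and 16 lower, of which 25 and 16 belonged to the same 138 and 75 genes, and leaving out 1-cycle replicate J5 gave 18 and 9.

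Of the 3 genes past 2-fold, Gpnmb, which encodes a transmembrane glycoprotein of macrophages rich in lysosomes, had 2-cycles values that overlapped between the array sets. It read 7.78, 8.32, 8.06, 8.45 and 7.87 in the 3-cycles mice, against 7.23, 7.06, 7.13, 6.85 and 6.71 in the 1-cycle mice. Every 3-cycles mouse lay above every 1-cycle mouse, and the 5 control mice lay below both groups at 5.79 to 6.15. The log2 fold change was 1.10 with an SE of 0.21 (adjusted p = 0.0128, limma), and 1.16 without G3 (adjusted p = 0.0209). With array set it was 0.82 with an SE of 0.31 (adjusted p = 0.46). Within the 2-cycles group the high arrays (7.78, 7.43 and 7.77) and the low arrays (7.82 and 7.33) of Gpnmb averaged 0.08 apart. Within acute colitis, the other group with both sets, the high arrays of Gpnmb exceeded the low ones by 0.52. Its gene lies at chr6:49036518-49058182 (GRCm38.p6).

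Other genes known from macrophages had higher values after 3 cycles, named here after their values were seen. Stab1, a scavenger receptor of tissue macrophages and some endothelia, read 7.66, 7.76, 8.07, 7.96 and 8.05 after 3 cycles, against 7.37, 7.36, 7.71, 7.40 and 7.17 after 1 cycle. 1-cycle replicate K1 (7.71) was its only point of overlap. The log2 fold change of Stab1 was 0.50 (SE 0.12, adjusted p = 0.0285) and 0.62 with array set (SE 0.17, adjusted p = 0.331). Maf, a transcription factor of resident macrophages and some T cells, was at 7.90 to 8.30 after 3 cycles and at 7.23 to 7.78 after 1 cycle, without overlap (log2 fold change 0.48, adjusted p = 0.0176, and 0.47 with array set). Atp6v0d2, a subunit of the proton pump that acidifies lysosomes, was low on the array, at 4.76 to 5.38 after 3 cycles and 4.38 to 4.85 after 1 cycle (log2 fold change 0.48, adjusted p = 0.0341). Without G3 the log2 fold changes of Stab1, Maf and Atp6v0d2 were 0.46, 0.43 and 0.41, with adjusted p-values of 0.0808, 0.0619 and 0.103 (limma). In the list of 21 measured monocyte and macrophage genes the median log2 fold change was 0.01, 11 of 21 members were above 0, and none passed the adjusted p. Without G3 the median was -0.10 and 7 of 21 were above 0. The mean level of the list was 7.60 in G3 and 6.81 to 7.27 in the other 3-cycles mice, against 6.80 to 7.39 after 1 cycle. Within it, Cd68 read 7.71 to 8.56 after 3 cycles and 7.25 to 8.05 after 1 cycle (0.46, adjusted p = 0.286), and Ccr2, a receptor of recruited monocytes, differed by -0.36 (adjusted p = 0.558).

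**Figure D1:**
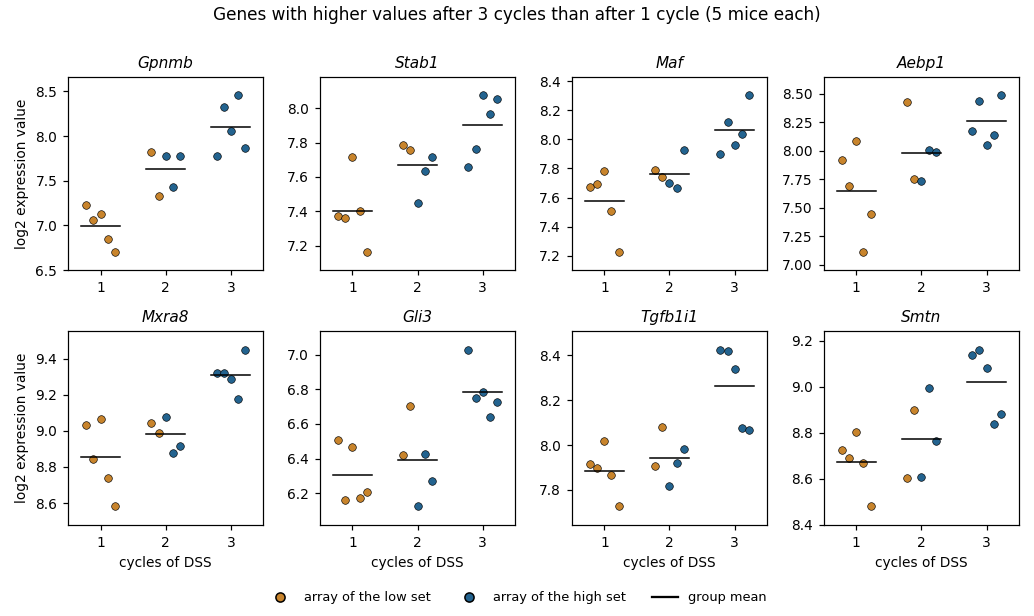
Log2 expression value of 8 genes (y axis) by number of DSS cycles, 1 to 3 (x axis), with 1 point per mouse, 5 mice per group, coloured by array set, and a line at each group mean. In Gpnmb, Maf, Mxra8, Gli3, Tgfb1i1 and Smtn every 3-cycles mouse lies above every 1-cycle mouse, and the low and high arrays of the 2-cycles group overlap in each gene shown except Stab1, where the low arrays are the higher ones.

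Several genes known from mesenchymal cells were also among the higher ones, and were likewise picked out after their values were seen. The fibroblast markers Col1a1 and Col3a1 differed by only 0.11 and 0.09 (adjusted p = 0.647 and 0.671, limma). The fibroblast marker Pdgfra went the other way, at -0.22 (adjusted p = 0.201). Aebp1, a collagen-binding matrix protein, read 8.17, 8.44, 8.05, 8.14 and 8.48 in the 3-cycles mice, against 7.92, 7.69, 8.08, 7.12 and 7.45 in the 1-cycle mice. Both groups touched between 8.05 and 8.08, and the 1-cycle mice were the more spread (SD 0.38 against 0.19 after 3 cycles). Its log2 fold change was 0.61 (SE 0.16, adjusted p = 0.0451) and 0.75 with array set (adjusted p = 0.391). Mxra8, an adhesion protein of fibroblasts, was at 9.18 to 9.45 after 3 cycles and 8.58 to 9.06 after 1 cycle, with a log2 fold change of 0.46 (adjusted p = 0.021) and 0.55 with array set. Gli3, a transcription factor of the Hedgehog pathway that signals from gut epithelium to mesenchyme, read 7.03, 6.75, 6.79, 6.64 and 6.73 after 3 cycles, against 6.51, 6.16, 6.47, 6.17 and 6.21 after 1 cycle. Its groups did not overlap. Control mice, at 6.41 to 6.63, lay below every 3-cycles mouse and overlapped the upper 1-cycle values. Gli3 differed by 0.48 (SE 0.11, adjusted p = 0.0244) and by 0.71 with array set (SE 0.15), where its adjusted p of 0.212 was the smallest reached in that fit. Without G3, Aebp1, Mxra8 and Gli3 differed by 0.55, 0.42 and 0.50, with adjusted p-values of 0.119, 0.064 and 0.0512 (limma).

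Fgfr1, a receptor for fibroblast growth factors, was at 8.36 to 8.63 after 3 cycles and 8.01 to 8.26 after 1 cycle (0.39, adjusted p = 0.043, and 0.48 with array set). Tgfb1i1, a focal adhesion adaptor abundant in smooth muscle, was at 8.07 to 8.42 after 3 cycles and 7.73 to 8.02 after 1 cycle (0.38, adjusted p = 0.0382, and 0.54 with array set). Without G3, Fgfr1 differed by 0.38 (adjusted p = 0.094, limma) and Tgfb1i1 by 0.43 (adjusted p = 0.0456). Smtn, which encodes the contractile protein smoothelin, was the only member of the 43 gene lists that passed the adjusted p in the higher direction. It read 9.14, 9.16, 9.08, 8.84 and 8.88 after 3 cycles, against 8.73, 8.69, 8.80, 8.67 and 8.48 after 1 cycle. Control mice had 8.91 to 9.09 for Smtn, so the 3-cycles mice lay around the control range and every 1-cycle mouse below it. Its log2 fold change was 0.35 (SE 0.09, adjusted p = 0.0451) and 0.45 with array set (adjusted p = 0.383), and without G3 it was 0.38 (adjusted p = 0.064).

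Further higher genes are given by gene. Sox18, a transcription factor of vascular and lymphatic endothelium, was at 7.23 to 7.64 after 3 cycles and 6.83 to 7.22 after 1 cycle (0.42, SE 0.08, adjusted p = 0.0128, and 0.30 with array set). Egfl7, which endothelial cells secrete, differed by 0.44 (adjusted p = 0.0185). Without G3, Sox18 had 0.37 (adjusted p = 0.0424, limma) and Egfl7 0.39 (adjusted p = 0.0619). Crtc3 and Crtc2, coactivators of the transcription factor CREB, differed by 0.33 (adjusted p = 0.0131) and 0.28 (adjusted p = 0.0144). Pacsin2, a protein that bends membranes, read 9.73, 9.74, 9.68, 9.76 and 9.69 after 3 cycles, against 9.44, 9.41, 9.50, 9.49 and 9.37 after 1 cycle. The SD was 0.03 after 3 cycles and 0.05 after 1 cycle, and the control mice, at 9.69 to 9.78, lay with the 3-cycles mice. The zinc finger genes Zfp384 (0.28), Zfp579 (0.46) and Zfp174 (0.32), together with Fbrs (0.32), Lrrc14 (0.29), Tmem255b (0.40) and Polr2h, a subunit shared by the RNA polymerases (0.38), had adjusted p-values between 0.00764 and 0.0144, and none of their groups overlapped. With array set these 7 genes differed by 0.12 (Lrrc14) to 0.39 (Zfp579). Polr2h has a second probe set with 1 symbol, which differed by -0.02 (adjusted p = 0.929), so its higher value rests on 1 of them.

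Dock6, an activator of the small GTPases Rac1 and Cdc42, is read by 15 probe sets. All 15 were above 0 (log2 fold change 0.08 to 0.52) and 7 passed the adjusted p. The brightest read 9.53, 9.78, 9.70, 9.47 and 9.61 after 3 cycles, against 9.20, 9.18, 9.33, 9.25 and 9.01 after 1 cycle. With array set the 15 lay between -0.10 and 0.31, with 1 of them below 0. Tns1, a focal adhesion protein, gave a different picture. 1 of its 6 probe sets passed both thresholds (8.38 ± 0.13 after 3 cycles and 7.30 ± 0.28 after 1 cycle, SD, n = 5 each), but its difference of 1.08 became -0.01 with array set, and the high 2-cycles arrays exceeded the low ones by 1.14. The other probe sets of Tns1 differed by 0.18 to 0.43 (0.27 to 0.68 with array set) and did not pass the adjusted p.

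The lower genes are likewise given by gene. Cops9, a small subunit of the COP9 signalosome that removes Nedd8 from ubiquitin ligases, read 8.59, 8.39, 8.40, 8.42 and 8.49 after 3 cycles, against 8.91, 8.83, 8.77, 8.86 and 8.87 after 1 cycle. Its groups did not overlap, and control mice lay mostly between them at 8.57 to 8.80. The log2 fold change of Cops9 was -0.39 (SE 0.06, adjusted p = 0.00374) and -0.37 with array set (adjusted p = 0.27). Suz12, a core subunit of the Polycomb complex that methylates histone H3, was at 8.38 to 8.61 after 3 cycles and 8.86 to 9.10 after 1 cycle (-0.46, adjusted p = 0.00461, and -0.31 with array set). Smarca5, the motor of the ISWI chromatin remodellers, read 7.66, 7.49, 7.58, 7.63 and 7.22 after 3 cycles, against 8.03, 8.0, 8.01, 7.78 and 7.96 after 1 cycle. The 2-cycles mice were at 7.85 to 8.02 and the control mice at 7.97 to 8.23 for Smarca5, so that every 3-cycles mouse lay below all of them. Smarca5 differed by -0.44 (SE 0.08, adjusted p = 0.00741) and by -0.47 with array set (adjusted p = 0.302).

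Tfdp1, the partner of the E2F transcription factors, read 8.47 to 8.75 after 3 cycles and 9.02 to 9.19 after 1 cycle (-0.43, adjusted p = 0.00819, and -0.34 with array set). A dimmer probe set of Tfdp1 differed by 0.02 (adjusted p = 0.928). Pcna, the sliding clamp of DNA polymerase, read 9.37, 9.16, 9.59, 9.37 and 9.39 after 3 cycles, against 9.72, 9.89, 9.94, 9.62 and 9.67 after 1 cycle. The groups of Pcna did not overlap, and the log2 fold change was -0.39 (SE 0.10, adjusted p = 0.0396) and -0.49 with array set (adjusted p = 0.383). Pola1, the catalytic subunit of the polymerase that starts new strands (-0.45, adjusted p = 0.0469), Rpa3, part of the complex that coats single strands (-0.51, adjusted p = 0.0298), and Anp32e, a chaperone of histone H2A.Z (-0.41, adjusted p = 0.0272), were seen to be lower as well. H2ac4, a histone H2A gene with near-identical copies that its probes may share, was at 5.20 to 5.99 after 3 cycles and 5.86 to 6.65 after 1 cycle (-0.74, adjusted p = 0.0185, and -0.94 with array set), with overlap. Of the 22 measured genes of the proliferation list, Pcna alone passed the adjusted p and 2 were above 0. The list median was -0.16 (-0.52 with array set, -0.17 without G3), against 0.02 over all genes. In the steps inside each array set, described last, it was -0.08 for 3 cycles minus the high 2-cycles arrays. For the low 2-cycles arrays minus 1 cycle it was -0.31. The high arrays minus the low arrays gave -0.06 for Pcna within 2 cycles and 0.28 within acute colitis. Top2a (-0.44, adjusted p = 0.108), Rrm2 (-0.40, adjusted p = 0.184) and Mcm6 (-0.37, adjusted p = 0.14) did not pass. Without J5 the adjusted p of Pcna was 0.116.

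**Figure D2:**
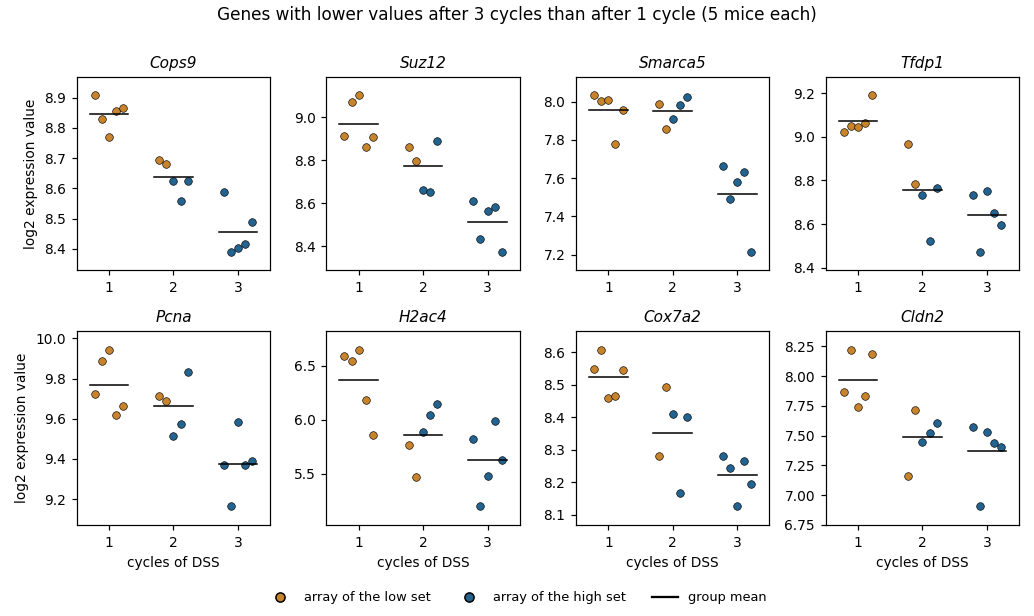
Log2 expression value of 8 genes (y axis) by number of DSS cycles, 1 to 3 (x axis), with 1 point per mouse, 5 mice per group, coloured by array set, and a line at each group mean. Every 3-cycles mouse lies below every 1-cycle mouse except in H2ac4, and Smarca5 is lower in the 3-cycles mice than in all 2-cycles mice.

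Cox7a2, a subunit of cytochrome c oxidase, read 8.28, 8.24, 8.13, 8.27 and 8.19 after 3 cycles, against 8.55, 8.61, 8.46, 8.46 and 8.55 after 1 cycle (-0.30, SE 0.06, adjusted p = 0.0144, and -0.23 with array set). It was the only one of 21 oxidative phosphorylation genes to pass, while 1 of the 21 was above 0 and the median was -0.09. Without G3, 5 of them were above 0 and the median was -0.06. Mrps26, a protein of the mitochondrial ribosome (-0.50), Topors, a ubiquitin and SUMO ligase (-0.33), Dhx9, an RNA helicase (-0.27), Nefh, the heavy neurofilament chain (-0.31), and Bex3 (-0.38) had adjusted p-values between 0.00819 and 0.0189 and groups that did not overlap. With array set these 5 genes differed by -0.19 (Dhx9) to -0.45 (Mrps26). Cldn2, which forms the cation pores of leaky tight junctions, read 7.57, 6.91, 7.53, 7.44 and 7.41 after 3 cycles, against 7.87, 8.22, 7.74, 7.84 and 8.18 after 1 cycle. The control mice of Cldn2 had 7.22 to 7.85, which holds 4 of the 3-cycles values and lies below 3 of the 1-cycle values. It differed by -0.60 (SE 0.16, adjusted p = 0.0475) and by -0.52 with array set (adjusted p = 0.561), and no other of the 17 claudin and tight junction genes passed.

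For Tfdp1 and Dhx9 the high arrays minus the low arrays gave -0.20 and -0.14 within the 2-cycles group. Within acute colitis they gave 0.03 and -0.02. 3 other lower genes moved with the array set. Acat3, an enzyme of acetoacetyl-CoA metabolism, was at 4.34 to 4.79 after 3 cycles and 4.95 to 5.67 after 1 cycle (-0.79, adjusted p = 0.0176). Its 2-cycles mice read 4.56, 4.67 and 4.27 on high arrays and 5.26 and 4.97 on low arrays, and its difference with array set was -0.30. Defb8, a beta-defensin, was at 3.97 to 4.63 after 3 cycles and 4.76 to 5.24 after 1 cycle (-0.67, adjusted p = 0.0196, and -0.18 with array set). Snord35b, a small nucleolar RNA that guides ribosomal RNA methylation, differed by -0.53 (adjusted p = 0.0189) and by -0.24 with array set.

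The same held for the largest differences on the higher side. AY036118 read 10.04, 9.86, 9.72, 9.84 and 9.82 after 3 cycles, against 8.49, 8.58, 8.31, 8.30 and 8.58 after 1 cycle (1.40, SE 0.32, adjusted p = 0.0262). Its 2-cycles mice read 9.85, 9.80 and 10.20 on high arrays and 8.44 and 8.11 on low arrays, so that within that group the high arrays lay at the 3-cycles level and the low arrays at or below the 1-cycle level. With array set AY036118 differed by -0.27. Usp17ld, of a family of near-identical deubiquitinase genes that its probes may share, behaved likewise (1.33, adjusted p = 0.0255, and -0.13 with array set).

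Several microRNA genes also followed the array set. These short RNAs repress messenger RNAs that pair with their seed, bases 2 to 8. The arrays read the transcript of the gene, not the mature form. Of 302 microRNA genes, 13 (4.3%) passed the adjusted p in the higher direction and 4 (1.32%) in the lower, against 0.692% and 0.376% of all genes. The group was chosen after its values were seen. Their median log2 fold change was 0.10, which became 0.00 with array set, and in all 17 the high 2-cycles arrays deviated from the low ones in the direction of the comparison. The mature sequences of 5 microRNAs are shown because 3 of them share the let-7 seed while their genes gave values in opposite directions. They are from RefSeq (GRCm38.p6), and capitals mark the seed.
mmu-miR-99a-5p: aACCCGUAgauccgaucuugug
mmu-let-7a-5p: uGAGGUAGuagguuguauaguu
mmu-let-7g-5p: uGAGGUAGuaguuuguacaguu
mmu-miR-98-5p: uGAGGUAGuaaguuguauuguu
mmu-miR-216b-5p: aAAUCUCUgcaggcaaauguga

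The mature let-7a sequence is held by the hairpins of Mirlet7a-1 (chr13:48538179-48538272, minus strand) and Mirlet7a-2 (chr9:41536716-41536811, plus strand). Mirlet7a-2 read 4.93, 4.76, 4.93, 4.32 and 4.92 after 3 cycles, against 4.15, 4.12, 3.85, 4.28 and 4.26 after 1 cycle (0.64, adjusted p = 0.0231). Mirlet7a-1 read 4.85, 4.90, 4.97, 4.92 and 4.96 after 3 cycles, against 5.35, 5.62, 5.50, 5.75 and 5.39 after 1 cycle (-0.60, adjusted p = 0.0432). Neither pair of groups overlapped, and the signs were opposite. Within the 2-cycles group the high arrays exceeded the low ones by 0.61 for Mirlet7a-2 and fell below them by 0.78 for Mirlet7a-1. With array set their differences were 0.17 and 0.05. Of the other let-7 seed genes, Mir98 (0.68, adjusted p = 0.0209) became 0.02 with array set and Mirlet7g (0.36, adjusted p = 0.0432) became 0.18.

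Mir99a read 5.66, 6.03, 5.95, 5.47 and 5.76 after 3 cycles, against 5.05, 4.80, 4.81, 5.06 and 4.98 after 1 cycle. Its log2 fold change of 0.83 (SE 0.13, adjusted p = 0.00427) was 0.37 with array set (SE 0.14, adjusted p = 0.468), the largest left among the 13. Mir216b was at 4.23 to 4.54 after 3 cycles and 5.07 to 5.34 after 1 cycle (-0.82, adjusted p = 0.00481, and -0.21 with array set). Both genes gave groups that did not overlap, and within the 2-cycles group they differed between the array sets by 0.46 (Mir99a) and -0.58 (Mir216b).

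**Figure D3:**
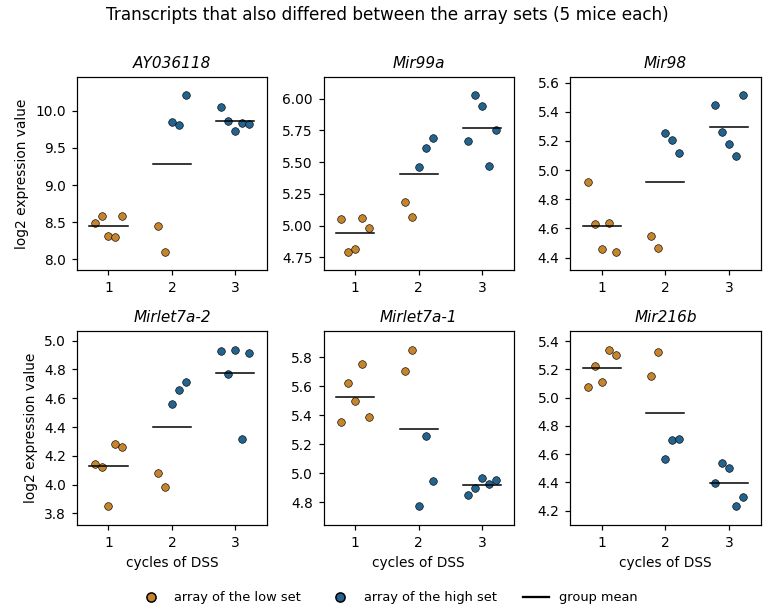
Log2 expression value of 6 transcripts (y axis) by number of DSS cycles, 1 to 3 (x axis), with 1 point per mouse, 5 mice per group, coloured by array set, and a line at each group mean. Within the 2-cycles group the 3 high arrays do not overlap the 2 low arrays in any of the 6 transcripts, and they lie on the side of the 3-cycles mice.

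The 43 gene lists, with 733 measured genes, gave 1 member that passed the adjusted p in the higher direction (0.136%) and 3 in the lower (0.409%), close to or below the shares over all genes. 39 lists had no such member. Their medians are therefore values without a test, to be read against 0.02 over all genes (-0.01 with array set). For 13 of the 43 lists the median had the other sign with array set.

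The lists of collagens, other matrix genes, fibroblasts, smooth muscle and endothelium had medians above 0, while that of matrix metalloproteinases and their inhibitors had -0.03 (6 of 13 above 0). The metalloproteinase list gave 0.20 with array set, and -0.30 with 5 of 13 above 0 without G3. All 19 collagen genes were above 0, with a median log2 fold change of 0.11 (0.05 with array set). Their mean level was 7.82 to 8.03 per mouse after 3 cycles and 7.61 to 7.94 after 1 cycle, with overlap, against 7.52 to 7.80 in control mice. Without G3 the collagen median was 0.08 and 18 of 19 were above 0. Col14a1, a collagen at fibril surfaces, had the largest value (0.32, adjusted p = 0.251), and Col5a2, which regulates fibril width, had 0.22 (adjusted p = 0.202). Other matrix genes had a median of 0.13, with 17 of 23 above 0, among them the elastic fibre proteins Fbln1 (0.34, adjusted p = 0.104) and Mfap5 (0.30, adjusted p = 0.179). The small proteoglycan gene Ogn had -0.41 (adjusted p = 0.348).

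The fibroblast list had a median of 0.16 with 17 of 21 above 0. In it, Wnt2b, a ligand that sustains crypt cells, read 7.26 to 7.72 after 3 cycles and 6.72 to 7.33 after 1 cycle (0.44, adjusted p = 0.0812), and the BMP antagonist Grem1 differed by 0.39 (adjusted p = 0.286). Of 17 smooth muscle genes 16 were above 0, with a median of 0.12 (0.45 with array set, 0.21 without G3). In the steps inside each array set, described last, the list median was 0.15 for 3 cycles minus the high 2-cycles arrays. It was 0.02 for the low 2-cycles arrays minus 1 cycle. For Synpo2 the high arrays minus the low arrays gave -0.07 within 2 cycles and -1.07 within acute colitis, and for Smtn 0.04 and -0.27. The mean level of the smooth muscle list was 9.45 to 9.56 in F1, F3 and F5 and 9.06 to 9.10 in G2 and G3, against 9.06 to 9.29 after 1 cycle and 9.39 to 9.74 in control mice. Kcnmb1, a potassium channel subunit of smooth muscle, had the largest value there (0.44, adjusted p = 0.0634), followed in size by Casq2, a calcium store protein, on the lower side (-0.36, adjusted p = 0.207), Smtn and Synpo2, an actin-bundling protein (0.31, adjusted p = 0.425). Endothelial genes had a median of 0.15 (12 of 16 above 0), with 0.25 for the receptor gene Tie1 (adjusted p = 0.167). Enteric neurons and glia had 0.05 (8 of 14), with 0.25 for the neuronal ubiquitin hydrolase gene Uchl1 (adjusted p = 0.131).

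Lists of lymphocytes showed no common direction. B cell genes had a median of -0.19 (-0.24 with array set) with 2 of 19 above 0. Their mean level per mouse spread from 6.24 to 7.73 after 3 cycles and from 6.93 to 7.73 after 1 cycle, so that the groups overlapped over all of the 1-cycle range. Ms4a1, which encodes CD20, read 5.40, 6.89, 6.03, 7.90 and 6.57 after 3 cycles, against 7.32, 7.26, 8.05, 6.94 and 7.06 after 1 cycle (-0.77, adjusted p = 0.388). Replicates F1 and F5 were the lowest and G2 was near the highest 1-cycle mouse. Fcer2a and Cr2, receptors of mature and follicular B cells, followed the same order of mice within the 3-cycles group (-0.71 and -0.61, adjusted p = 0.286 and 0.433). Cxcl13, which attracts B cells into follicles, was at 9.22 to 10.42 after 3 cycles and 10.17 to 10.79 after 1 cycle (-0.79, adjusted p = 0.191). Plasma cell genes had a median of 0.03 (8 of 13 above 0), with Derl3, of the secretory machinery, at 0.44 (adjusted p = 0.166). T and NK cells had a median of 0.04 (9 of 17 above 0), and -0.02 with 5 of 17 without G3, with 0.39 for Cd4 (adjusted p = 0.222) and -0.40 for the cytotoxic granule gene Gzmb (adjusted p = 0.384).

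**Figure D4:**
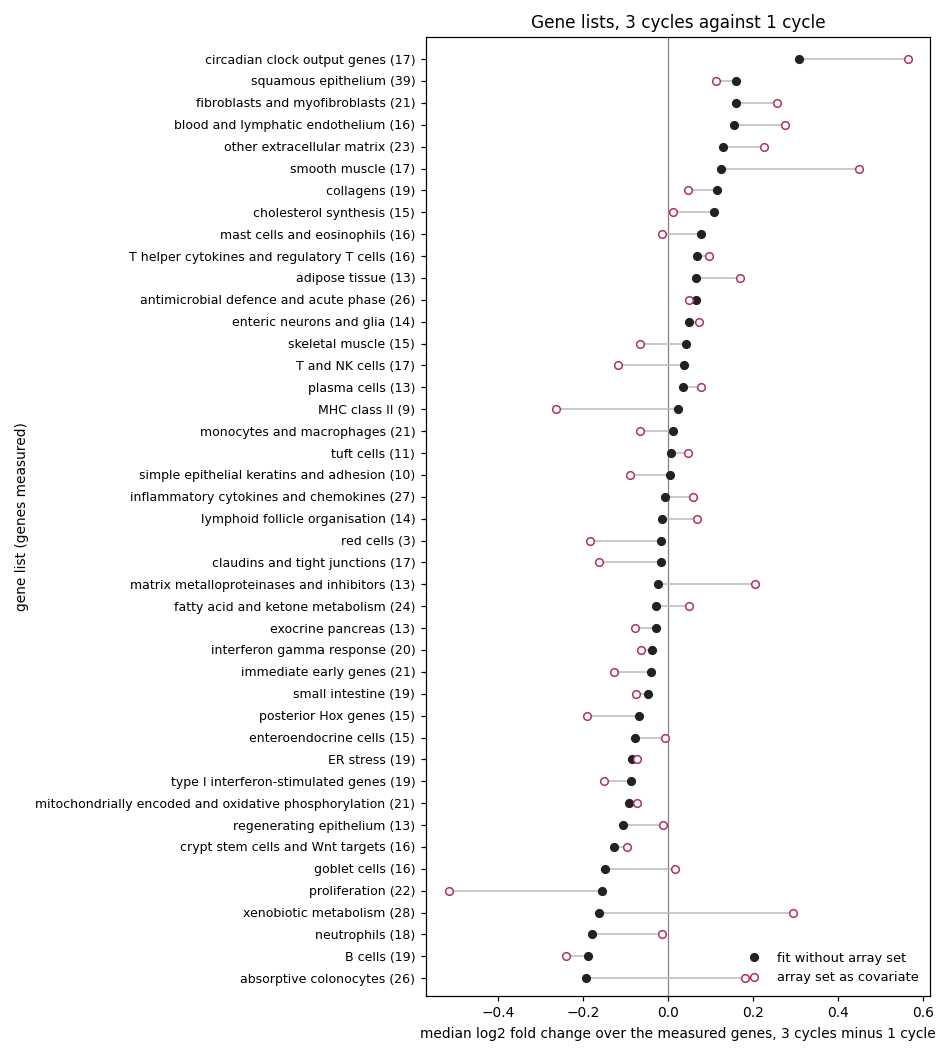
Median log2 fold change of 3 cycles minus 1 cycle (x axis) over the measured genes of 43 gene lists (y axis, number of genes in brackets). Filled points are the fit without array set and open points the fit with array set as a covariate. Filled points lie between -0.19 (absorptive colonocytes) and 0.31 (circadian clock output genes), and absorptive colonocytes and xenobiotic metabolism cross 0 between the fits.

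Replicate G3 moved several inflammatory lists. The neutrophil list had a median of -0.18 with 5 of 18 above 0, and -0.36 with 1 of 18 without G3. Its mean level was 6.88 in G3, against 5.80 to 6.12 in the 1-cycle mice, and the lowest 3-cycles mouse had 5.41. Interferon gamma response genes changed likewise, with a median of -0.04 (9 of 20 above 0), and -0.23 with 1 of 20 without G3. MHC class II genes had 0.02 (6 of 9) and, without G3, -0.15 (1 of 9).

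Il1b, the inflammatory cytokine interleukin-1 beta, read 5.99, 5.90, 6.03, 6.37 and 8.29 after 3 cycles, against 7.10, 7.66, 7.72, 7.55 and 7.54 after 1 cycle. G3 was above all 1-cycle mice and the other 3-cycles mice below all of them. The log2 fold change was -1.0 (adjusted p = 0.269) and -1.44 without G3 (adjusted p = 0.133). Saa3, an acute phase protein, read 6.94, 5.95, 5.95, 6.41 and 8.71 after 3 cycles, against 7.60, 7.87, 7.50, 7.38 and 8.18 after 1 cycle, and had the same arrangement (-0.92, adjusted p = 0.319, and -1.40 without G3, adjusted p = 0.137). Lcn2, which withholds iron from bacteria, was at 6.38 to 7.53 in the other 3-cycles mice, 9.58 in G3 and 7.57 to 8.93 after 1 cycle (-0.69, adjusted p = 0.464, and -1.23 without G3). Cxcl9, a chemokine induced by interferon gamma (-0.68), and Ido1, which degrades tryptophan (-0.72), had adjusted p-values of 0.489 and 0.435, and -1.07 and -1.04 without G3. None of these genes passed the adjusted p in either setting.

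G3 also had high values of squamous keratins and of Ppbp. Krt5, a keratin of stratified epithelia, read 10.91 in G3, against 5.75 to 5.85 in the other 3-cycles mice and 5.44 to 5.94 after 1 cycle. Krt13 was at 9.08 in G3 and at most 6.05 elsewhere in both groups. Ppbp, the platelet chemokine precursor, was at 10.79 in G3, 5.11 to 5.94 in the other 3-cycles mice and 4.67 to 5.32 after 1 cycle. The squamous list of 39 genes had a mean level of 7.20 in G3 and 6.00 to 6.11 after 1 cycle. Its median log2 fold change was 0.16, and 0.03 without G3. The skeletal muscle, exocrine pancreas, adipose tissue and small intestine lists had medians of 0.04, -0.03, 0.07 and -0.05, and their part in other results was not tested.

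Epithelial lists lay at or below 0. Absorptive colonocyte genes had a median of -0.19 (5 of 26 above 0), -0.07 without G3, and 0.18 with array set. The array sets differed in opposite directions in the groups on which that fit rests. For Cyp2c55 the high arrays minus the low arrays gave 0.78 within 2 cycles and -5.53 within acute colitis, and for Fabp2 0.61 and -3.10. In the steps inside each array set, described last, the median of the colonocyte list was -0.03 for 3 cycles minus the high 2-cycles arrays and -0.02 for the low 2-cycles arrays minus 1 cycle. Goblet cell genes had -0.15 (2 of 16) and 0.02 with array set. Retnlb, a goblet cell antimicrobial, read 10.10, 9.44, 8.91, 7.36 and 9.15 after 3 cycles, against 10.42, 10.91, 8.92, 10.34 and 9.63 after 1 cycle (-1.05, adjusted p = 0.436). Reg3b and Reg3g, antimicrobial lectins of the epithelium, had -1.60 and -1.18 (adjusted p = 0.28 and 0.398). For Reg3b the 3-cycles mice read 10.54, 8.85, 10.05, 9.26 and 8.52 and the 1-cycle mice 11.31, 12.16, 9.22, 11.21 and 11.32, with K1 among the 3-cycles values. With array set both lectins were near 0 (-0.02 and 0.07), with SEs of 1.10 and 1.03. Those values pool set differences of opposite sign, which for Reg3b were 0.15 within 2 cycles and -3.66 within acute colitis, and for Reg3g 0.40 and -3.23. Taken inside each array set, Reg3b differed by 1.13 between 3 cycles and the high 2-cycles arrays and by -2.88 between the low 2-cycles arrays and 1 cycle. The whole antimicrobial list had a median of 0.06 with 14 of 26 above 0.

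Lgr5, the marker of crypt base stem cells, read 6.78, 5.95, 6.31, 6.78 and 7.07 after 3 cycles, against 7.58, 7.61, 7.56, 7.09 and 7.44 after 1 cycle. G3, the highest 3-cycles mouse, lay just below K2, the lowest 1-cycle mouse, and the difference of -0.88 (SE 0.28) had an adjusted p of 0.0927, with -0.51 with array set. The list of stem cell and Wnt target genes had a median of -0.13 (4 of 16 above 0). Cyp2c65 and Cyp2c55, cytochromes P450 of colon epithelium, Fabp2, a fatty acid carrier, and Guca2a, the hormone guanylin, shared a split within the 3-cycles group. Cyp2c65 was at 6.23 and 6.63 in G2 and G3 and at 8.74 to 9.84 in F1, F3 and F5, against 8.61 to 10.59 after 1 cycle (-1.44, adjusted p = 0.38). For Fabp2 the same mice had 8.06 and 8.14 (G2 and G3) and 9.92 to 10.71, against 9.84 to 11.21 after 1 cycle (-1.04, adjusted p = 0.429). F and G are the label letters of the 3-cycles group. Cldn8, a sealing claudin of the distal colon, was at 7.50 to 9.41 after 3 cycles and 8.12 to 10.15 after 1 cycle (-0.60, adjusted p = 0.368, and -1.48 with array set).

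Genes of the circadian clock had the highest list median, 0.31 over 17 genes (11 above 0), and 0.56 with array set, and they varied widely inside each group. Nr1d1, the clock repressor REV-ERB alpha, read 10.73, 11.28, 9.55, 10.78 and 10.76 after 3 cycles, against 9.96, 8.65, 9.29, 8.87 and 8.77 after 1 cycle. F5 was the only 3-cycles mouse inside the 1-cycle range, and the control mice spread from 8.16 to 11.51. Its difference of 1.51 (SE 0.52, adjusted p = 0.12, and 2.04 with array set) was larger than that of any gene that passed the adjusted p. Dbp and Ciart, which peak near Nr1d1, had 0.84 and 0.93 (adjusted p = 0.268 and 0.257), and Arntl, which runs in the opposite phase, had -0.52 (adjusted p = 0.366). The hours at which the mice were killed were not given in the sources used here.

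**Figure D5:**
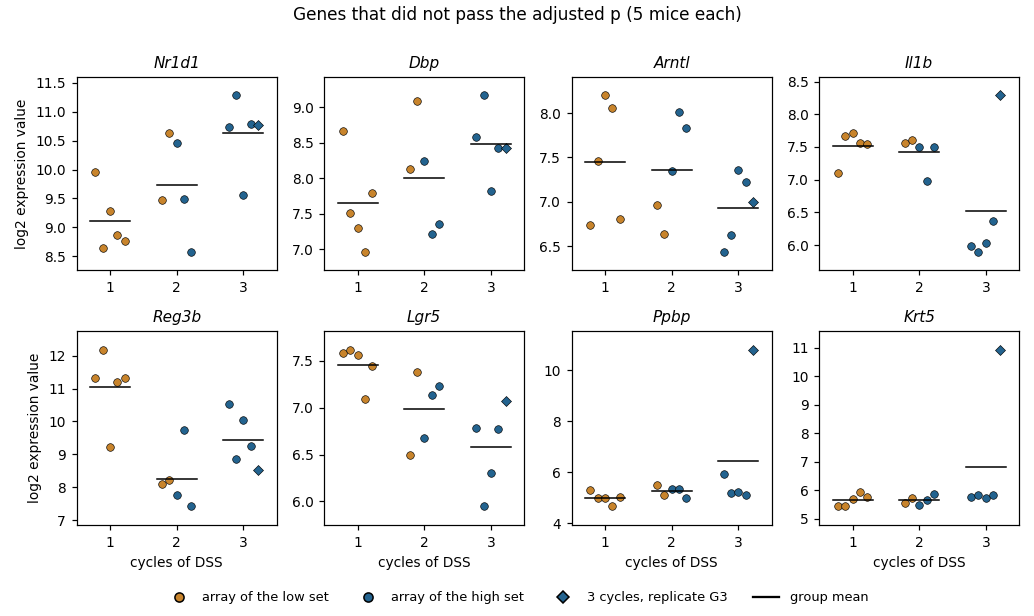
Log2 expression value of 8 genes that did not pass the adjusted p (y axis) by number of DSS cycles, 1 to 3 (x axis), with 1 point per mouse, 5 mice per group, coloured by array set, a diamond for 3-cycles replicate G3 and a line at each group mean. G3 reads 8.29 for Il1b, 10.79 for Ppbp and 10.91 for Krt5, above every other mouse shown, and Nr1d1 and Dbp spread over more than 1 log2 unit inside each group.

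The comparison was last taken in steps inside each array set, 3 cycles against the high 2-cycles arrays and the low 2-cycles arrays against 1 cycle. Neither step gave a gene that passed the adjusted p (limma, smallest adjusted p = 0.278 and 0.186). At an unadjusted p under 0.05, 820 of 19938 genes were higher and 513 lower in the later step, and 555 and 497 in the earlier one. If no gene differed, a share of 0.05 would be expected under that p, both directions together. Gpnmb differed by 0.44 (SE 0.24) in the later step and by 0.58 in the earlier one. For Gli3 these were 0.51 and 0.26, for Mxra8 0.35 and 0.16, and for Tgfb1i1 0.36 and 0.11. Smarca5 differed by -0.45 (SE 0.09) in the later step and by -0.03 in the earlier. Cldn2 had -0.15 and -0.53 in the same order, and H2ac4 -0.40 and -0.75. Inside the 2-cycles group, where both sets are compared at the same number of cycles, 7 genes were higher and 7 lower on the high arrays at the adjusted p, with 690 and 632 at the unadjusted one. Within acute colitis the high arrays had 208 genes higher and 177 lower than the low arrays at the adjusted p, with 2270 and 1339 at the unadjusted one.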

How the data were processed

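RNA of 29 mouse colons, 1 mouse per array, was hybridized to Affymetrix Mouse Gene 1.0 ST arrays. The authors used RMA (R 2.12.2) for background correction, normalization and summary, and their deposited log2 values were taken as they stand. Symbols come from the platform annotation: 1621 probe sets have several symbols and 12101 none, and 21698 of those with 1 symbol matched the RefSeq table (GRCm38.p6). Groups and replicate names come from the labels, and 0 columns were left out. Single-probe signals were not used here, so the number of arrays limits the precision. The p-values set a difference against the spread between mice within all 6 groups. In the 2-cycles and acute colitis groups that spread includes differences between the array sets.

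The main model (limma 3.58.1, R 4.3.3) has 1 mean per group over all 29 arrays, with Benjamini-Hochberg adjustment over all probe sets and thresholds of 0.05 and 2-fold. Named genes are, among probe sets with 1 symbol and without immunoglobulin chains, the 15 per direction of largest fold past both thresholds, filled up with those of smallest p, and the leading members of 43 gene lists. Members, lists and tests were chosen with earlier results of these data known. The limma step was tested on simulated data without a difference between array sets. That test therefore cannot address the overlap of array set and number of cycles.

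Alternatives were array set as a covariate, a fit of the 10 compared arrays, removal of each array, of dim probe sets or of those without exactly 1 symbol, quantile normalization, centring, array weights, a random block for the label letter, and a trended prior with robust estimation.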

Additional observations from a re-analysis of the deposited data

Results flagged for a closer look

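Among the 110 genes described, 220 groups of 5 mice were examined for a mouse far from the other 4, and 13 were found. Chance gives about 1 in 20 groups, so a count of this size is near that level, and 5 of the 13 lie in G3. After 3 cycles, G3 was highest for Ltf (9.23, against 4.88 to 5.72 in the other mice), Il1b (8.29, against 5.90 to 6.37), Ppbp (10.79, against 5.11 to 5.94), Krt5 (10.91, against 5.75 to 5.85) and Krt13 (9.08, against 5.41 to 6.05). Ltf, a protein of neutrophil granules, differed by 0.60 between 3 cycles and 1 cycle (adjusted p = 0.697) and by -0.21 without G3. In the same group F3 was lowest for Cldn2 (6.91, the others 7.41 to 7.57) and G2 for Mirlet7a-2 (4.32, the others 4.76 to 4.93).

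After 1 cycle, K1 was highest for Col5a2 (7.06, the others 6.69 to 6.74) and Cr2 (7.52, the others 6.61 to 6.83), and K3 for Tfdp1 (9.19, the others 9.02 to 9.06). The lowest were K3 for Insig1, a brake on cholesterol synthesis (9.07, the others 9.49 to 9.61), K2 for Anp32e (7.27, the others 7.53 to 7.62) and J1 for Il1b (7.10, the others 7.54 to 7.72).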

How the results depend on the processing

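With array set as a covariate all 4 counts of probe sets became 0 (limma, with 1796 of 35511 higher and 1122 lower at an unadjusted p under 0.05). In that fit AY036118 (-0.27), Usp17ld (-0.13) and Mirlet7a-1 (0.048) changed sign. The cause was not tested. At the adjusted p alone (397 higher, 230 lower), the 10 compared arrays gave 218 and 108, the random block of label letter 875 and 508, array weights 1088 and 778, and testing only probe sets with 1 symbol 83 and 47. Centring gave 236 higher. With the 2-fold threshold (26 higher, 17 lower), probe sets with 1 symbol gave 4 and 0, and leaving out dim probe sets 15 higher. Leaving out 1 array gave 14 to 33 higher and 5 to 19 lower with the fold, and 75 to 421 higher and 29 to 389 lower at the adjusted p alone. The counts at the adjusted p alone were 127 and 66 without F3, 166 and 91 without F5, 105 and 55 without G3, 177 and 97 without J1, 75 and 29 without J5, and 151 and 96 without K1. Without K2 the lower count was 389, and without K3 it was 98. With the fold, 14 higher and 5 lower remained without J5, and the lower count was 9 without F3, 7 without G3, 10 without J1 and 11 without K3.

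Of 52 genes named above that passed the adjusted p, 20 passed with each array left out in turn (among them Gpnmb, Cops9, Suz12, Smarca5, Tfdp1, Dock6, Sox18 and Mir99a). 28 passed without G3, 21 without J5 and 26 with the 10 compared arrays. None of these 52 genes changed sign outside the fit with array set. Dim genes such as the microRNA genes (median level 4.75) are read near the bottom of the scale.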

Other observations

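A few gene families were counted after their values were seen. Of 52 small nucleolar RNA genes, 4 (7.69%) passed the adjusted p (limma), all lower after 3 cycles, against 0.376% of all genes, with a median log2 fold change of -0.20 that became 0.02 with array set. Within the 2-cycles group their median on high arrays was 0.28 below that on low arrays (a difference of -0.28). The 61 ribosomal protein genes had a median of -0.10 (-0.09 with array set), with 15 above 0, and 1 passed the adjusted p (1.64%, against 0.376% of all genes in that direction). This gene, Rpl7, of the large ribosomal subunit, read 10.02 to 10.13 after 3 cycles and 10.23 to 10.60 after 1 cycle, without overlap (-0.37, adjusted p = 0.0244, and -0.17 with array set). Of 1027 olfactory receptor genes, 6 (0.584%) passed the adjusted p, all higher after 3 cycles, against 0.692% of all genes, and their median of 0.08 became 0.01 with array set.

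Cholesterol synthesis genes had a median of 0.11 with 14 of 15 above 0 (0.01 with array set), and ER stress genes -0.09 with 4 of 19 above 0. Txndc12, an oxidoreductase of the endoplasmic reticulum, read 7.63 to 8.17 after 3 cycles and 8.22 to 8.67 after 1 cycle, without overlap (-0.50, adjusted p = 0.0268, and -0.56 with array set). Genes past the adjusted p spanned a median of 12.7 kb (higher) and 12.4 kb (lower) in the RefSeq table, against 17.7 kb over all genes.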
